A study of Mus musculus with 6 samples.

Results

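The reelin pathway was followed through 4 genes of the mouse hippocampus: Reln, which encodes the secreted ligand reelin; Lrp8 and Vldlr, which encode its receptors; and Dab1, which encodes the adaptor inside the cell. They were taken by symbol from the gene column of a table of 23235 genes, and all 4 were found there and had been tested. The tissue came from adult male mice aged 60 to 70 days, 3 of the Nes-cKO genotype (Rbfox1 fl/fl; Nes/+) and 3 wildtype (Rbfox1 fl/fl; +/+), dissected in pairs. Both genotypes therefore carried Rbfox1 alleles flanked by loxP sites, and a Nestin-driven Cre recombinase was present in Nes-cKO alone. That driver is active in neural progenitors, so recombination reaches their neuronal and glial descendants and is not limited to the hippocampus or to a cell type within it. The comparison asked which transcripts and alternative exons differ when the splicing regulator Rbfox1 is deleted from the nervous system.

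Reelin is a large extracellular glycoprotein. It binds the lipoprotein receptors ApoER2, the product of Lrp8, and VLDLR, whose clustering leads Src-family kinases to phosphorylate Dab1. Phosphorylated Dab1 recruits Crk adaptors and phosphatidylinositol 3-kinase and is then degraded. In the developing hippocampus, Cajal-Retzius cells secrete reelin and the signal positions migrating neurons. In the adult hippocampus reelin comes mainly from GABAergic interneurons, and signalling through ApoER2 is known to enhance NMDA receptor function and synaptic plasticity.

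The ligand and the receptor gene Lrp8 were higher in Nes-cKO hippocampus, whereas Vldlr and Dab1 did not pass the test. The authors deposited 1 expression value per gene and genotype, in FPKM, a level scaled to transcript length and sequencing depth. No value has a spread between mice, and the number of reads behind a level is unknown. The test is the one in the authors' deposited table, called at a q-value of 0.05, where q is the p-value adjusted for the number of genes tested. Of 14964 tested genes, 1035 passed, which is 6.92%, with 4.62% higher and 2.29% lower in Nes-cKO. Of the 4 genes, 2 passed, both higher. With only 4 genes, picked for their pathway while earlier results of these data were known, the share has no test of its own. The deleted gene Rbfox1 stood at 23.0 FPKM in Nes-cKO and 67.5 FPKM in wildtype, a value for the whole gene that includes exons outside the deleted part.

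**Figure D1:**
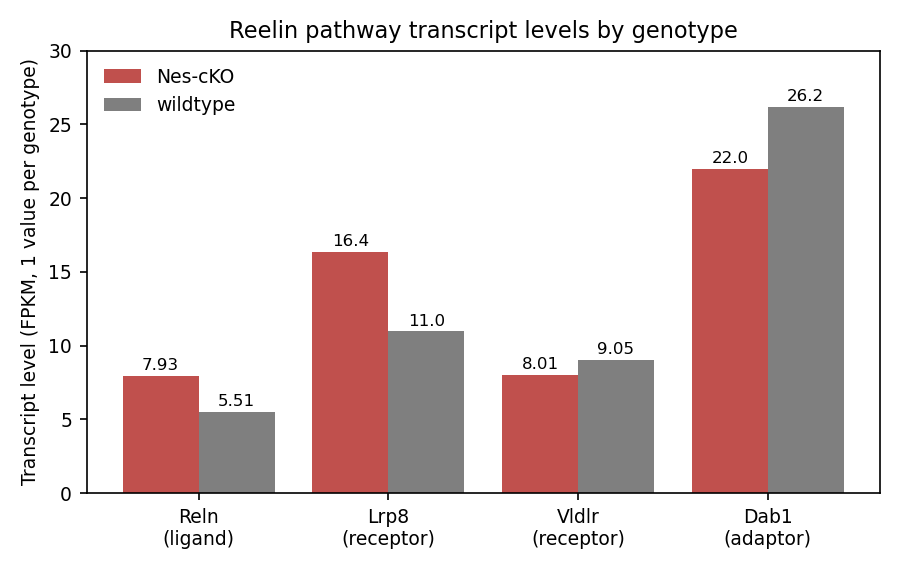
Transcript level in FPKM (vertical axis, from 0) of the ligand, receptor and adaptor genes, with 1 bar per genotype and no error bars because 1 value per genotype was deposited. Reln (7.93 and 5.51 FPKM) and Lrp8 (16.4 and 11.0 FPKM) were higher in Nes-cKO than in wildtype, and Vldlr (8.01 and 9.05 FPKM) and Dab1 (22.0 and 26.2 FPKM) were lower without passing the test.

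Reln stood at 7.93 FPKM in Nes-cKO and 5.51 FPKM in wildtype. The Nes-cKO level was thus 1.44 times the wildtype level, a log2 ratio of 0.53, with q = 0.00152 in the authors' deposited table. This q is the smallest the table holds and is shared by 491 genes, so it does not rank Reln among them. The Reln change was moderate for a called gene: 691 of the 1035 called genes, 66.8%, had a larger absolute log2 ratio. Reln lay above 53.7% of the tested genes by level in Nes-cKO and above 45.0% in wildtype. The gene spans chromosome 5 from 21390272 to 21850523 in mm9, a locus of 460.3 kb, and no other gene in the table overlaps it. None of the 9 tested genes within 500 kb of it passed.

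The sequence just before the Reln start is shown because Reln and Lrp8 moved in the same direction and can be compared by promoter. It is RefSeq sequence of the 250 bases before the outermost annotated start, in GRCm38.p6, a later build than the mm9 of the expression table. Capitals mark matches, on either strand, to the Egr motif GCGNGGGCG, the E-box CACGTG or the Sp1 motif GGGCGG; the cAMP response element TGACGTCA and the AP-1 motif TGANTCA were searched as well. These motifs were chosen after the expression values were known.
Reln: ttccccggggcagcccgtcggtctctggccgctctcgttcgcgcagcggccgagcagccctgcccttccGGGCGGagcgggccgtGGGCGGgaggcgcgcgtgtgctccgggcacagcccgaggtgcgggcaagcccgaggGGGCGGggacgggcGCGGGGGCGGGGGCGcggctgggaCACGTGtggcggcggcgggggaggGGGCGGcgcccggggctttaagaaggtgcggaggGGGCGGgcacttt
Lrp8: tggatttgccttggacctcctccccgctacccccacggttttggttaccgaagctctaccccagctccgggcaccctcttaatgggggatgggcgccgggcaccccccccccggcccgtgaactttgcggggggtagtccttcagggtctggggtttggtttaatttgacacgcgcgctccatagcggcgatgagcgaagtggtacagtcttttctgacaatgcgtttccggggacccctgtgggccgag
The Reln window (minus strand, chromosome 5, 22344706 to 22344955) held 2 Egr matches, 1 E-box and 6 Sp1 matches, and no match to the other motifs. The Egr matches overlapped each other and 1 of the Sp1 matches. Among 32851 RefSeq promoter windows of the same length, 4.7% held an Egr match, 6.02% an E-box and 32.7% an Sp1 match. The Reln window was 80% G or C, against 62.4% for Lrp8, 56.4% for Dab1 and 41.6% for Vldlr. The 32851 windows were not matched for this share, so these percentages do not show that Reln is unusual for its composition. The Lrp8 window (plus strand, chromosome 4, 107802635 to 107802884) held none of the 5 motifs, and neither did the windows of Vldlr and Dab1. A cAMP response element was present in 1.55% and an AP-1 motif in 6.75% of all windows. The Reln window was also the richest of the 4 in CG dinucleotides, with 37, against 18 for Lrp8, 10 for Dab1 and 5 for Vldlr, where the median over all windows was 6. RefSeq lists 3 starts for Lrp8 and 2 each for Vldlr and Dab1, and the expression table gives a locus per gene but not the starts used. The Dab1 window, at 103619250 to 103619499 of chromosome 4, lies before the measured Dab1 locus, which begins at 104040165 in mm9. The change of build does not account for this, as Lrp8 on the same chromosome has its higher position in GRCm38.p6. The Dab1 window therefore describes a start outside the measured locus. A match to these letters is a description of the window and not evidence of a bound site.

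Lrp8 stood at 16.4 FPKM in Nes-cKO and 11.0 FPKM in wildtype. The Nes-cKO level was 1.49 times the wildtype level, a log2 ratio of 0.58, with q = 0.00152 in the authors' deposited table. Among the called genes, 593 of 1035, or 57.3%, had a larger absolute log2 ratio. Over all tested genes, the log2 ratio of Lrp8 exceeded 95.6% and that of Reln 94.9%. Lrp8 occupies chromosome 4 from 107474864 to 107549445 in mm9, again with no overlapping gene in the table. Within 500 kb of it, 2 of 11 tested genes passed, where 6.92% of all tested genes did.

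The second receptor gene and the adaptor gene had lower values in Nes-cKO that did not pass. Vldlr (mm9 chromosome 19, 27291510 to 27328721) stood at 8.01 FPKM in Nes-cKO and 9.05 FPKM in wildtype, a ratio of 0.885. Its p-value was 0.146 and its q-value 0.625 in the authors' deposited table. Dab1 (mm9 chromosome 4, 104040165 to 104417447) stood at 22.0 FPKM in Nes-cKO and 26.2 FPKM in wildtype, a ratio of 0.840. Its p-value was 0.0896 and its q-value 0.478 in the authors' deposited table. These q-values do not show that the levels were equal, and without values per mouse no interval of the difference can be given. Dab1 and Lrp8 lie 3.06 Mb apart on the same chromosome. The part of this gap beside Lrp8 also lies within 500 kb of it, so a gene can be counted in both. Of the 20 tested genes between Dab1 and Lrp8, 3 passed, all higher in Nes-cKO. Over all tested genes, 6.92% passed and 4.62% passed as higher, and the difference was not tested. Ssbp3, at 46.5 FPKM in Nes-cKO and 28.9 FPKM in wildtype, and Tmem48, at 4.75 and 3.35 FPKM, were among those 3. Both are named for their position, after their values were seen.

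**Figure D2:**
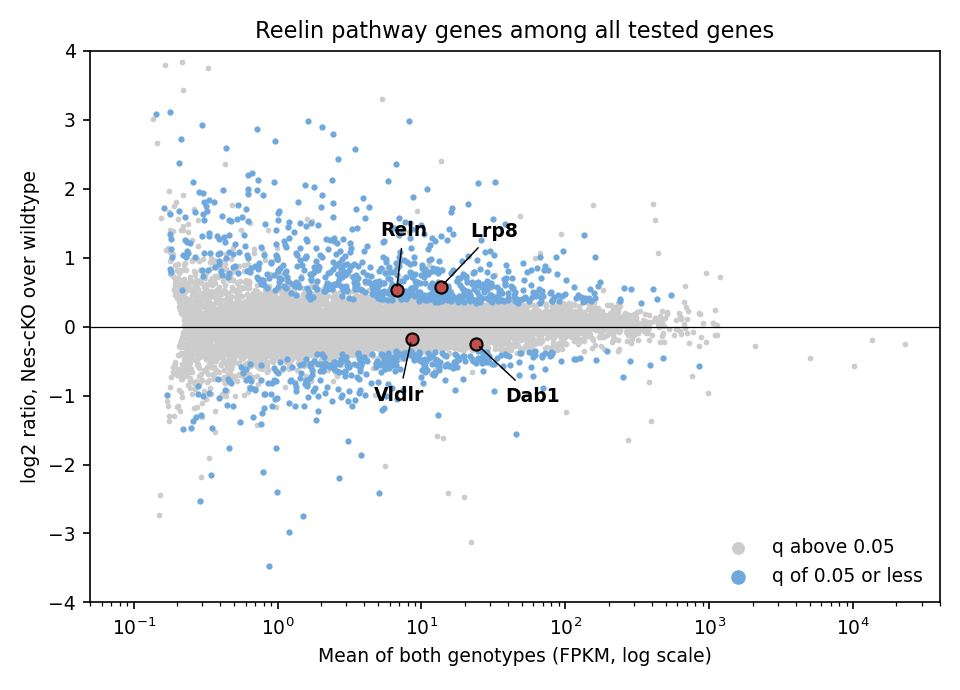
Each point is a tested gene, with the mean FPKM of both genotypes on a log scale (horizontal axis) and the log2 of the Nes-cKO level over the wildtype level (vertical axis, cut at 4 in either direction, which leaves out 12 genes). Blue points had a deposited q below 0.05; the 4 reelin pathway genes are drawn in red, with Reln and Lrp8 at log2 ratios of 0.53 and 0.58 and Vldlr and Dab1 at -0.18 and -0.25.

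FPKM is scaled to length, so the genes can be set side by side by level. From high to low the order was Dab1, Lrp8, Vldlr and Reln in Nes-cKO, and it was the same in wildtype. In Nes-cKO, Vldlr at 8.01 FPKM and Reln at 7.93 FPKM were nearly level, against 9.05 and 5.51 FPKM in wildtype. Whether neighbours in this order differ beyond the variation between mice cannot be told from 1 value per genotype. The receptor transcripts together made 24.4 FPKM in Nes-cKO and 20.0 FPKM in wildtype. Lrp8 supplied 67.2% of that sum in Nes-cKO and 54.8% in wildtype. Per FPKM of receptor there was 0.901 FPKM of Dab1 in Nes-cKO and 1.31 FPKM in wildtype. The ratio of Dab1 to Reln was 2.77 in Nes-cKO and 4.75 in wildtype. These ratios combine genes that passed with genes that did not, and they describe the pooled values with no test.

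None of the 4 genes appeared among the alternative splicing events. The authors' deposited tables list 320 events, 249 of them cassette exons, each with an inclusion change of over 10 percentage points between the genotypes. Reln, Lrp8, Vldlr and Dab1 had 0 events by symbol, and 0 events fell inside their mm9 loci. Because smaller changes and unmeasured exons are not listed, this says only that no event of the 4 genes exceeded that size among those listed. Alternative exons are well known in Lrp8, where an exon encoding a cytoplasmic insert carries the interaction with postsynaptic scaffolds, and in Dab1.

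Rbfox1 is an RNA-binding protein that recognises the letters UGCAUG, with GCAUG as its core, both in introns and in 3' UTRs. The 3' UTRs of the 4 genes were therefore searched, on the transcript strand, for GCATG and for the longer TGCATG in GENCODE vM21 transcripts (GRCm38), taking for each gene the transcript with the longest 3' UTR. The Lrp8 matches and the longer Vldlr matches are printed with 12 bases on each side, since these receptor genes differ in expression change and both carry the letters. Capitals mark the match.
Lrp8 site 1: cagtttgtgcagGCATGcggtaggaaagg
Lrp8 site 2: gagccaagtgagTGCATGtctagggttccc
Lrp8 site 3: atagcatactggGCATGtgtccacacacg
Vldlr site 1: gttgatgcaagcTGCATGctccttgttaag
Vldlr site 2: tggcatctggtgTGCATGggcacatgtact
Lrp8 held 3 GCATG matches in 1588 nt, of which 1 was TGCATG. Among 2844 3' UTRs within 20% of that length, 76.7% held GCATG and 41.2% held TGCATG. Vldlr held 6 matches in 5091 nt, 2 of them TGCATG, at a length where 99.05% of 951 3' UTRs held GCATG and 81.1% held TGCATG. Dab1 held 3 GCATG matches in 3347 nt and no TGCATG, where 94.5% and 67.8% of 2012 like-sized 3' UTRs held them. Reln, with a 3' UTR of 1019 nt, held neither, and 58.6% of 2677 like-sized 3' UTRs held GCATG. The median count of GCATG in like-sized 3' UTRs was 1 for Lrp8, 5 for Vldlr, 3 for Dab1 and 1 for Reln. At least as many matches were held by 20.9% of those like-sized to Lrp8, 36.7% to Vldlr and 59.6% to Dab1. Of the called genes, Lrp8 thus held matches and Reln none, and both genes that did not pass held them. A match is a run of letters and not evidence of binding.

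Beyond the 4 genes, 6 lists covered the rest of the pathway, with 87 genes in all. A member was counted where it had a test and reached 1 FPKM in either genotype, which 82 did. By the deposited q-values, 4 of these were higher, 2 were lower and 76 did not pass. That is 7.32% called, and the share over all tested genes at this level was 7.1%, with 4.69% higher and 2.41% lower. The lists as a whole therefore stood near the background. Their median log2 ratio was 0.04, against 0.03 over all tested genes at this level.

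By the mean of both genotypes, the most highly expressed relatives of the receptors were Lrp11 and Lrp1, and neither passed. Lrp11 stood at 50.8 FPKM in Nes-cKO and 49.2 FPKM in wildtype, and Lrp1 at 30.3 and 28.6 FPKM. Lrp1 encodes a large endocytic receptor that also takes up apolipoprotein E. Lrp2, another relative, had too little signal for a test.

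A chaperone of these receptors was higher in Nes-cKO. Lrpap1 encodes the receptor-associated protein, which escorts LDL receptor family members through the endoplasmic reticulum and keeps ligands off them. Lrpap1 stood at 84.5 FPKM in Nes-cKO and 51.8 FPKM in wildtype, a ratio of 1.63 with q = 0.00152 in the authors' deposited table. It was the only call among 14 measured genes for other receptor ligands and receptor handling, and 13 did not pass, with a list median log2 ratio of 0.05. The lipoprotein ligand genes Apoe, at 837 and 925 FPKM in Nes-cKO and wildtype, and Clu, at 385 and 421 FPKM, were the most abundant of these. Selenop, the gene of a selenium carrier that Lrp8 takes up, is listed as Sepp1 and stood at 77.6 FPKM in Nes-cKO and 97.9 FPKM in wildtype with q = 0.0559 in the authors' deposited table. It lies outside the naming rule and was picked for its value.

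Genes of proteases that process reelin changed in both directions. The list also held Serpini1, which encodes neuroserpin, an inhibitor of tissue plasminogen activator. Of its 6 measured genes, 2 were higher, 2 were lower and 2 did not pass. Those 2 were the protease gene Adamts2, at 1.37 FPKM in Nes-cKO and 1.52 FPKM in wildtype, and Serpini1, at 53.8 and 56.1 FPKM. Adamts3 encodes a metalloprotease that cleaves reelin near its amino terminus and inactivates it. Adamts3 stood at 1.85 FPKM in Nes-cKO and 2.77 FPKM in wildtype, 66.7% of the wildtype level, with q = 0.00152 in the authors' deposited table. Adamts4, a related protease that also cleaves reelin, stood at 2.47 FPKM in Nes-cKO and 3.49 FPKM in wildtype, with q = 0.0209 in the authors' deposited table. Adamts4 is known to be expressed in oligodendrocytes. All 8 oligodendrocyte markers (Mbp and Mog among them) passed as lower, where 2.41% of all tested genes at 1 FPKM or more did. Their summed level was 1177 FPKM in Nes-cKO and 1728 FPKM in wildtype. The part of that shift in the Adamts4 value was not tested. Plat, the tissue plasminogen activator gene, stood at 16.5 FPKM in Nes-cKO and 12.2 FPKM in wildtype, a ratio of 1.36 with q = 0.0108 in the authors' deposited table. Furin, the gene of a proprotein convertase that matures secreted proteins, stood at 11.3 FPKM in Nes-cKO and 8.25 FPKM in wildtype, a ratio of 1.37 with q = 0.00999 in the authors' deposited table. Over the 6 genes, Serpini1 included, the median log2 ratio was -0.10.

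**Figure D3:**
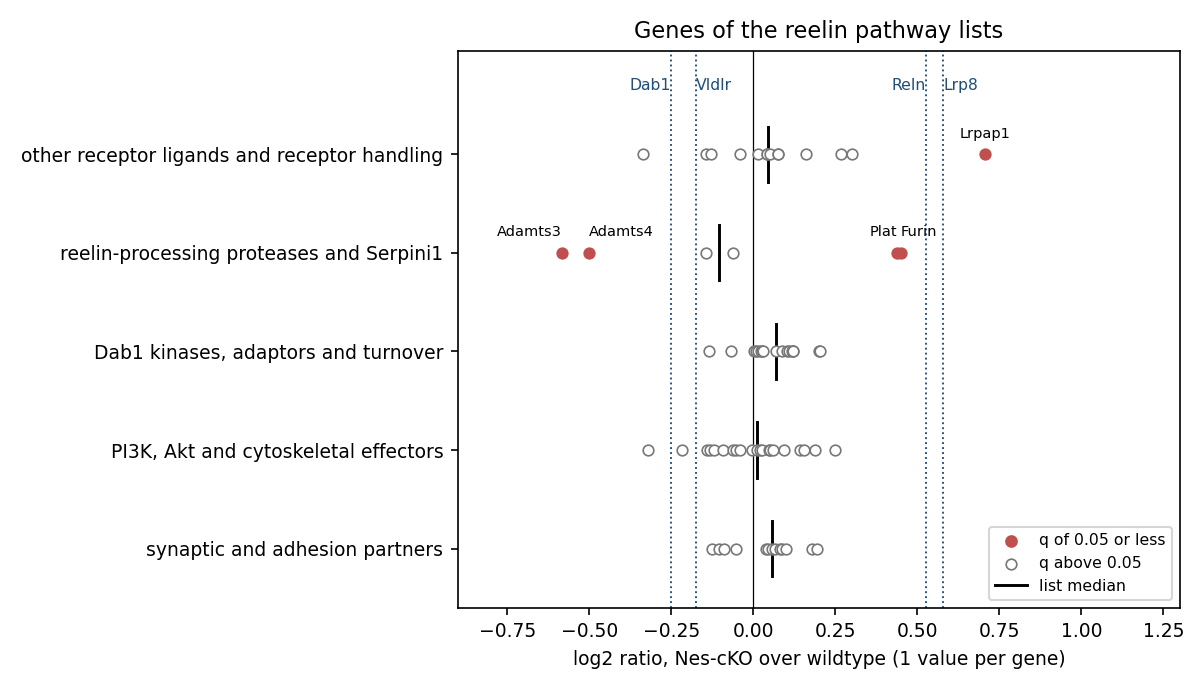
Log2 ratio of Nes-cKO over wildtype (horizontal axis) for 71 measured genes of 5 pathway lists, 1 row per list, with filled points for genes past a q of 0.05 and a black bar at each list's median. Dotted lines mark the 4 reelin pathway genes. Lrpap1, Furin and Plat lie to the right and Adamts3 and Adamts4 to the left, and no gene of the lower 3 rows is filled.

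Genes acting below the receptors showed no call. Of 17 kinases, adaptors and turnover factors of Dab1, none passed in the Cuffdiff test of the authors' deposited table. Of these, 0 had an unadjusted p under 0.05 in that test, where 14.6% of all tested genes at 1 FPKM or more did. The most highly expressed were Stk25, at 74.3 FPKM in Nes-cKO and 68.4 FPKM in wildtype, and Rnf7, at 42.5 and 42.4 FPKM. The Src-family kinase genes Fyn, at 36.0 FPKM in Nes-cKO and 33.1 FPKM in wildtype, and Src, at 34.8 and 30.3 FPKM, are added for their role. The list median log2 ratio was 0.07. Of 21 genes for phosphatidylinositol 3-kinase, Akt and cytoskeletal effectors, none passed and 2 had an unadjusted p under 0.05. Cfl1, the actin-severing cofilin gene, stood at 661 FPKM in Nes-cKO and 593 FPKM in wildtype. Pafah1b1, the lissencephaly gene Lis1 of dynein regulation, stood at 84.2 FPKM in Nes-cKO and 82.7 FPKM in wildtype. The list median log2 ratio was 0.01. Of 13 synaptic and adhesion partners, none passed and 0 had an unadjusted p under 0.05. App, the amyloid precursor protein gene, stood at 448 FPKM in Nes-cKO and 436 FPKM in wildtype, and Dlg4, the PSD-95 gene, at 181 and 188 FPKM. The list median log2 ratio was 0.06. A missed threshold does not show that these levels were equal.

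A single listed splicing event belonged to the pathway lists. It was a 115 nt cassette exon of Rps6kb1, the gene of the S6 kinase below mTOR, on the minus strand of mm9 chromosome 11 from 86357433 to 86357547. In the authors' deposited table its inclusion was 26.6% in Nes-cKO and 42.3% in wildtype, with a deposited p = 3.47e-10. The junction reads pooled over mice gave 22.0% from 91 reads in Nes-cKO (95% Wilson interval 14.7% to 31.5%) and 39.3% from 84 reads in wildtype (29.5% to 50.0%). Fisher's exact test (two-sided) on these reads, with Benjamini-Hochberg adjustment over all listed cassette exons, gave an adjusted p = 0.0526 and did not pass, where 24.1% of the 249 listed exons did. The deposited p and this test thus differ on the exon. The intervals and the test cover counting error only and compare the pooled libraries, not the mice. All 249 exons were listed for an inclusion change between these same libraries. The adjustment does not account for that selection, and 24.1% is not a background rate over all exons.

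Markers of the cells that make reelin were read beside its level. In bulk tissue a change in the number of cells of a type and a change in RNA per cell cannot be told apart. Over all tested genes at 1 FPKM or more, 7.1% passed, 4.69% as higher and 2.41% as lower. Of 8 markers of Cajal-Retzius cells, 3 reached 1 FPKM, and 2 of these, Calb2 and Cacna2d2, were higher. Both genes are also expressed by other neurons. The other 5, all transcription factor genes, stayed below 1 FPKM in both genotypes, and none passed. Trp73 stood at 0.616 FPKM in Nes-cKO and 0.798 FPKM in wildtype, with q = 0.386 in the authors' deposited table. Lhx1 stood at 0.377 FPKM in Nes-cKO and 0.195 FPKM in wildtype, with p = 0.0085 and q = 0.0979 in the authors' deposited table. Nhlh2 stood at 0.769 FPKM in Nes-cKO and 0.584 FPKM in wildtype, Ebf3 at 0.263 and 0.233 FPKM, and Lhx5, which had no test, at 0.129 and 0.0769 FPKM. No marker on the list was at 0. The 3 measured markers summed to 55.2 FPKM in Nes-cKO and 36.1 FPKM in wildtype. Nearly all of that difference lay in Calb2, at 41.7 FPKM in Nes-cKO and 28.9 FPKM in wildtype, and Cacna2d2, at 11.6 and 5.28 FPKM. The third was Ndnf, which is on the interneuron list as well and did not pass. Of 22 markers of GABAergic interneurons, Npy and Nr2f2 were higher, Lamp5 (listed as 6330527O06Rik) was lower and 19 did not pass. That is 13.6% called, beside 7.1% over all tested genes at 1 FPKM or more. Npy, a neuropeptide gene, stood at 193 FPKM in Nes-cKO and 77.3 FPKM in wildtype, and Lamp5, a neurogliaform marker, at 7.57 and 18.5 FPKM. The GABA synthesis genes Gad1, at 93.0 FPKM in Nes-cKO and 82.2 FPKM in wildtype, and Gad2, at 25.4 and 21.3 FPKM, were among those that did not pass. Ndnf, a marker of reelin-producing neurogliaform cells that the table lists as A930038C07Rik, stood at 1.95 FPKM in Nes-cKO and 1.92 FPKM in wildtype. The interneuron list had a median log2 ratio of 0.07, with 15 ratios above 1 and 7 below. It summed to 1070 FPKM in Nes-cKO and 976 FPKM in wildtype, and Npy alone differed by more FPKM than these sums do. Gad1, Gad2, Ndnf and the 5 transcription factor genes lie outside the naming rule and were added after their values were known.

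Genes listed as markers of other brain regions also differed between the libraries that gave the reelin values. Levels in bulk tissue do not show in which region a transcript was made, and Zic1 is on both the cerebellar and the thalamic list. Granule cells of the cerebellum are a strong source of reelin. Of 10 measured cerebellar markers, Gabra6, Cbln1, Cbln3, Fat2, Zic1, Zic2 and Car8 were higher, none was lower and 3 did not pass. Gabra6, a GABA receptor subunit gene of granule cells, stood at 10.5 FPKM in Nes-cKO and 3.51 FPKM in wildtype. The list summed to 102 FPKM in Nes-cKO and 59.7 FPKM in wildtype, had a median log2 ratio of 1.25, and held no marker at 0 in either genotype. Of 9 measured thalamic markers, Lhx9, Prkcd and Ntng1 were lower, Zic1 was higher and 5 did not pass, with sums of 29.4 FPKM in Nes-cKO and 33.5 FPKM in wildtype. Of 10 measured neocortical and entorhinal markers, Cux2, Ctgf and Rprm were higher, Rasgrf2 and Cdh24 were lower and 5 did not pass. These markers summed to 118 FPKM in Nes-cKO and 90.5 FPKM in wildtype. Rprm, at 46.6 FPKM in Nes-cKO and 15.9 FPKM in wildtype, alone differed by more FPKM than these sums do. Ratios lay above 1 for 4 of the cortical markers and below 1 for 6, and their median on the log2 scale was -0.07. Of the measured markers, 70% of the cerebellar, 44.4% of the thalamic and 50% of the cortical ones passed. Over all tested genes at 1 FPKM or more, 7.1% did. Entorhinal neurons are another source of reelin. The part of these shifts in regional markers and of the interneuron and Cajal-Retzius markers in the Reln and Lrp8 values was not tested.

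The hippocampal label was checked in the same way. Of 15 markers of hippocampal pyramidal and granule neurons, all reached 1 FPKM in the table. Neurod2 and Grik4 were higher in Nes-cKO, Fibcd1, Spink8 and Cpne4 were lower and 10 did not pass. Prox1, the dentate granule cell gene, stood at 11.9 FPKM in Nes-cKO and 10.3 FPKM in wildtype. Wfs1, a gene of the CA1 field, stood at 44.2 FPKM in Nes-cKO and 43.8 FPKM in wildtype. It does not stand for that field as a whole, since Fibcd1 and Spink8, which were lower, are CA1 genes too. Fibcd1 stood at 20.8 FPKM in Nes-cKO and 28.6 FPKM in wildtype, and Spink8 at 14.4 and 20.4 FPKM. Among glial lists, Gfap and Aqp4 were higher and Glul was lower out of 8 astrocyte markers, with sums of 990 FPKM in Nes-cKO and 1043 FPKM in wildtype. None of 8 microglia markers passed in the Cuffdiff test. Of these, 0 had an unadjusted p under 0.05, where 14.6% of all tested genes at 1 FPKM or more did. The most abundant were Ctss, at 36.2 FPKM in Nes-cKO and 42.8 FPKM in wildtype, and C1qa, at 36.2 and 36.8 FPKM. Kdr was the only call among 8 endothelial and mural markers, where Vtn and Cldn5 were the most abundant. The share called was 33.3% for the hippocampal list, 37.5% for astrocytes and 12.5% for endothelial and mural cells. Over all tested genes at 1 FPKM or more it was 7.1%. Prox1 and Wfs1 were named for their field.

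**Figure D4:**
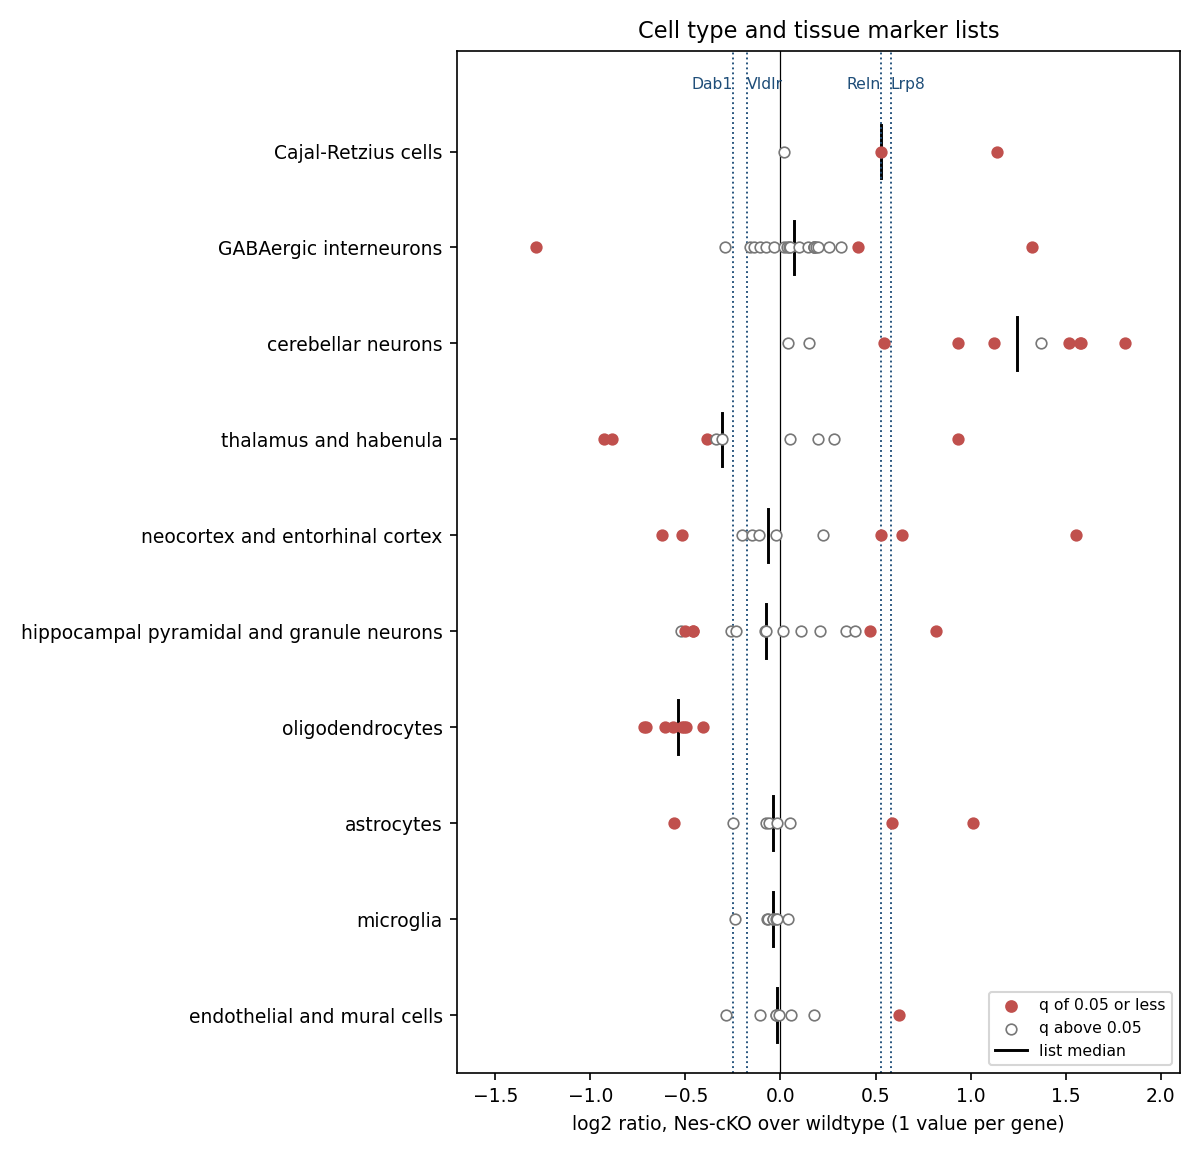
Log2 ratio of Nes-cKO over wildtype (horizontal axis) for measured cell type and region markers, 1 row per list, with filled points for genes past a q of 0.05 and a black bar at each list's median. Dotted lines mark the 4 reelin pathway genes. The cerebellar median of 1.25 lies to the right of Reln and Lrp8, while some of its genes lie to their left, and the oligodendrocyte list, with a median of -0.54, to the left of Vldlr and Dab1.

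The tested genes nearest to each of the 4 in level were found by the distance between log2 FPKM values, over both genotypes. This rests on 2 values per gene and says nothing about shared function. The choice also fixes each neighbour's ratio close to the member's, so a shared call, or lack of one, is no separate result. Nearest to Reln were Tmem169 (7.98 FPKM in Nes-cKO and 5.51 FPKM in wildtype) and Zswim6. Nearest to Lrp8 were Cyp51 (16.2 FPKM in Nes-cKO and 10.8 FPKM in wildtype), Iglon5 and Atp2b4. Each of these was a call as well. Nearest to Vldlr were Igf2, Gt(ROSA)26Sor and Tfb2m, and nearest to Dab1 were Gm561, Igfbp5 and Nudt4, none of which passed.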

How the data were processed

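Hippocampal RNA from 3 Nes-cKO and 3 wildtype mice was read as strand-specific paired 50 bp reads, per the labels' protocols. CASAVA, Cufflinks, Cuffdiff and the build mm9 are named, without versions, in the submitters' processing notes; the aligner and the strand setting of counting were not given in the sources used here. Per the file headers, the authors deposited 1 FPKM value per gene and genotype with Cuffdiff p-values and q-values. The splicing tables hold, per the file headers, an inclusion fraction per event and genotype, a deposited p-value and whole counts of reads for each of 3 junctions. Depth per mouse is unknown.

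Ratios of Nes-cKO over wildtype were computed from the FPKM with no pseudocount, and the deposited q-value at 0.05 was the call, because values per mouse, which the design had allowed for, were not found. Inclusion reads were the rounded mean of the 2 inclusion junctions, compared with skipping reads by Fisher's exact test. Spliced genes were matched by symbol or RefSeq synonym, and 3 list genes by synonym. Loci and exons are in mm9, from base 1. The genes named are the 4 members, Rbfox1, called list members (or the 2 most highly expressed where fewer passed) and the 3 genes nearest to each member; exceptions are stated, and some genes the rule names are not reported here. The members and lists were chosen with earlier results of these data known. Alternatives changed the q threshold, pseudocount, centring, FPKM minimum, adjustment and junction rule. Python 3.11.15, numpy 2.4.6, pandas 2.3.3, scipy 1.17.1 and matplotlib 3.10.9 were used.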

Additional observations from a re-analysis of the deposited data

How the results depend on the processing

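At a q of 0.01 or 0.1, Reln and Lrp8 stayed past the threshold and Vldlr and Dab1 short of it. The same held with adjustment over genes at 1 FPKM or more. A pseudocount of 0.1 or 1 FPKM and centring on the median log2 ratio changed the ratio alone. The deposited q was left as it was there, so these settings do not test the calls, and a pseudocount cannot turn the sign of a ratio. After centring, Reln and Lrp8 stayed higher and Vldlr and Dab1 lower. Over these settings the log2 ratio of Reln lay between 0.46 and 0.53, of Lrp8 between 0.54 and 0.58, of Vldlr between -0.21 and -0.16 and of Dab1 between -0.28 and -0.24. With a minimum of 5 FPKM, 413 genes were higher and 182 lower over the whole table, where 692 and 343 were with no minimum, since fewer genes are then counted. At a q of 0.01, 196 were lower. Of the pathway list genes, 0 were lower with a minimum of 5 FPKM, as both Adamts genes fall under it, and 1 was lower at a q of 0.01, where 2 were at the settings reported. The list of reelin-processing proteases and Serpini1 had 1 higher and 1 lower gene at a q of 0.01. The Rps6kb1 exon had an adjusted p between 0.0526 and 0.0729 under the other junction rules and adjustments. The count of events in the 4 genes was 0 when matched by locus, a check chosen after seeing the data, and the junction rules gave it no value. No paired analysis was possible because, although the mice were dissected in pairs, the deposited values are 1 per genotype, and no mouse could be left out for the same reason. That also limits every comparison: neither the variation between mice nor the reads behind a level can be examined.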
